A study of Drosophila melanogaster with 14 samples.

Results

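Control embryos of the fruit fly Drosophila melanogaster were sequenced in 2 sets in a study of lola, a gene for transcription factors of the BTB zinc finger family, and both sets carry the same genotype and the same age on their labels. The 2 libraries labelled as controls of the lola-null set (null-set controls) were compared with the 3 libraries labelled as controls of the lola-F set (lola-F-set controls). These 5 libraries were chosen by label from 14 libraries in the series, of which 10 are from embryos. All 5 are labelled Wild type / Df(2R)ED2076, a wild-type chromosome over a deficiency that the mutant embryos of both sets also carry. All 5 are labelled as embryos of 15 h after fertilization. The series' design text describes collection for 2 h at 25 °C and development for a further 13 h, and only the lola-F-set labels repeat that collection scheme. Each lola-F-set library came from 100 embryos, and the number of embryos per null-set library is not known here. The mutant libraries of the 2 sets, lola-F stop / Df(2R)ED2076 (n = 3) and lola E76 / Df(2R)ED2076 (n = 2), enter only where their levels are set beside those of the controls. Set, batch and any difference in true age cannot be told apart in this design. No label ties the replicates to separate collections, so the p-values measure the spread between these libraries, which may be technical.

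A fly embryo begins with RNA that its mother placed in the egg, and this maternal RNA is largely cleared as the embryo's own genes switch on, cells form from the shared cytoplasm and the body is segmented. Neural stem cells (neuroblasts) then divide, the germ band retracts, the epidermis closes over the back and a pulse of the steroid hormone ecdysone passes through the embryo. In the last part of embryogenesis the epidermis lays down its layered cuticle, axons form synapses, muscles build sarcomeres, and the midgut and Malpighian tubules take on digestive and excretory functions. Genes of each of these steps are known, so their levels in whole-embryo RNA describe which programs a library holds. In bulk RNA, fewer cells of a type and less RNA per cell cannot be told apart.

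Reads counted in genes ranged from 3326811 to 11542534 in the lola-F-set controls and were 4236877 and 7098985 in the null-set controls. Reads assigned to no gene, or to several genes or places, made up 66.7% of all reads in lola-F-set control 1, 44.5% and 30.6% in the null-set controls, and 7.75% and 7.29% in lola-F-set controls 2 and 3. Levels are given as counts per 1000000 counts of scaled library size (CPM), so 3 counts in a library correspond to 0.929 CPM at most. All pairs of libraries within a set differed by more than counting noise, with a chi-square per degree of freedom of 12.7 to 42.8. The library labelled lola-F-set control 3 stood apart from controls 1 and 2 for some genes, which are given with their values. Of 20 egg shell genes of the ovary, 1 was detected well enough to test. That gene, psd, was at 10.3 and 2.46 CPM in the null-set controls and at 0.310, 0.711 and 0.0960 CPM in the lola-F-set controls (adjusted p = 0.00447, and 0.0657 without null-set control 1). Of 18 adult male genes, 2 could be tested and 0 were called. The summed level of the egg shell list was 5.05 to 14.9 CPM in the null-set controls and 2.17 to 3.91 CPM in the lola-F-set controls, and that of the adult male list was at most 7.55 CPM.

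Of 10501 genes tested, 7381 (70.3%) differed between the 2 control sets at an adjusted p under 0.05 by edgeR's quasi-likelihood test, here termed called. Of these, 3624 (34.5%) were higher in the null-set controls and 3757 (35.8%) were lower. Calls with a change of more than 2-fold made up 57.7% of genes, 2855 higher (27.2%) and 3206 lower (30.5%). Large differences leaned one way: 1624 called genes were more than 10-fold lower in the null-set controls and 578 were more than 10-fold higher. The 2 sets did not overlap at all in 8520 genes (81.1%). With 0 counts in both null-set controls, 98 genes were at 20 CPM or more in every lola-F-set control, and the reverse was found for 2 genes. The reverse was the stricter condition, as 3 counts over the group were 0.136 CPM in the lola-F-set controls and 0.240 CPM in the null-set controls. Osi9, with 1 count in the lola-F-set controls together, missed it. All fold changes below are null-set over lola-F-set controls with their standard error (SE) on the log2 scale, where the median of all genes was -0.02. A gene read in only 1 set enters the test through that set and had to differ, so counts within a list describe the genes tested and are read beside the shares over all genes. Genes were sorted into 44 lists of tissues, stages and functions.

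**Figure D1:**
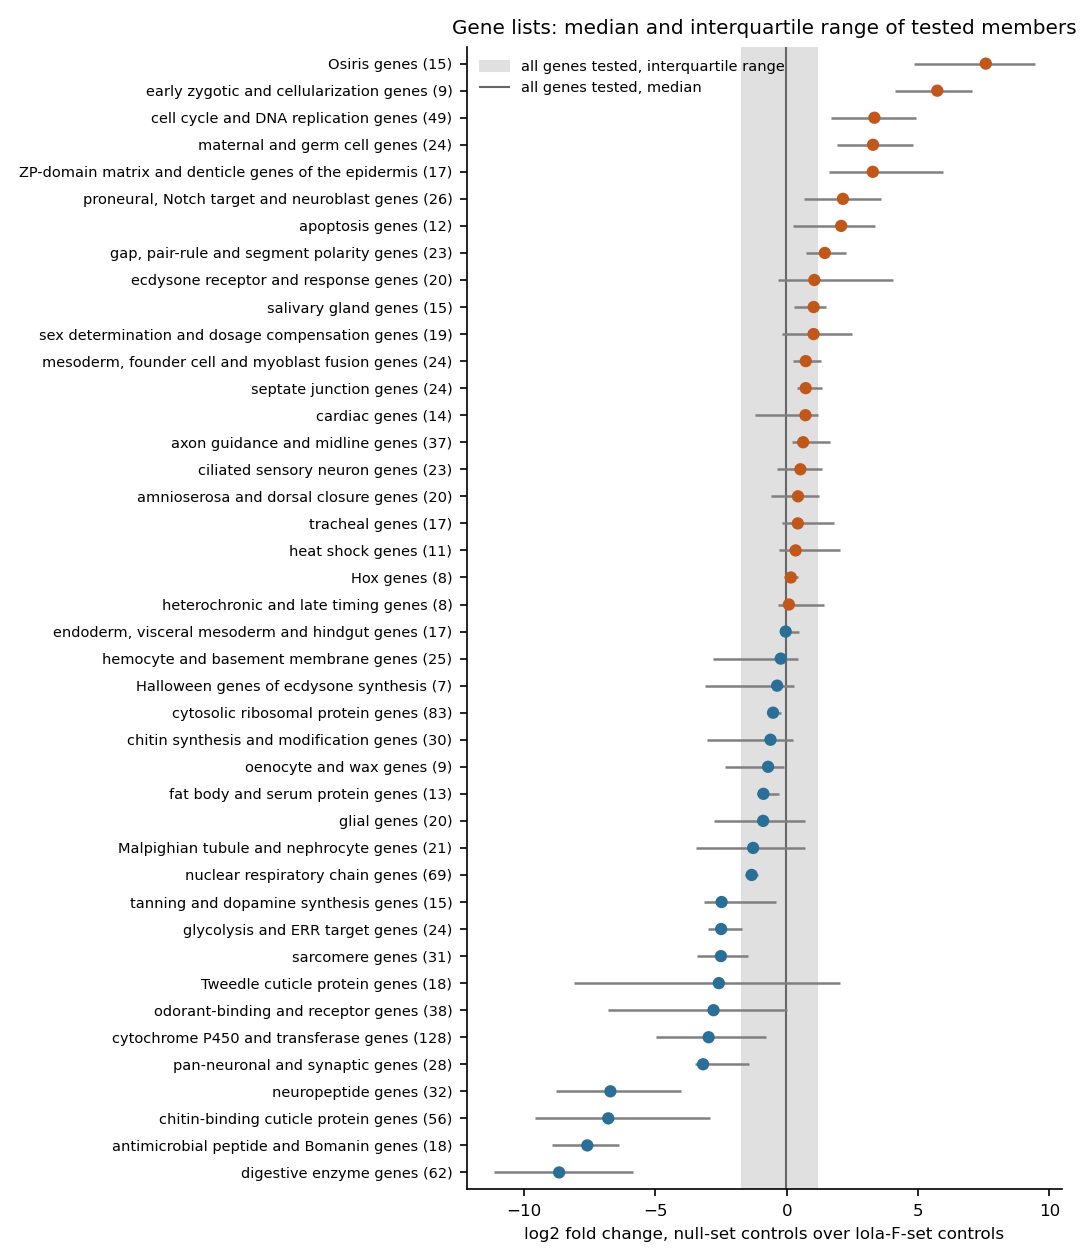
Median (point) and interquartile range (line) of the log2 fold change, null-set over lola-F-set controls, for the tested members of each gene list, with the number tested in brackets. Orange points are medians above 0 and blue points medians below 0, the grey band and vertical line are the interquartile range and median of all 10501 genes, and lists run from Osiris genes (7.58) at the top to digestive enzymes (-8.66) at the bottom.

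**Figure D2:**
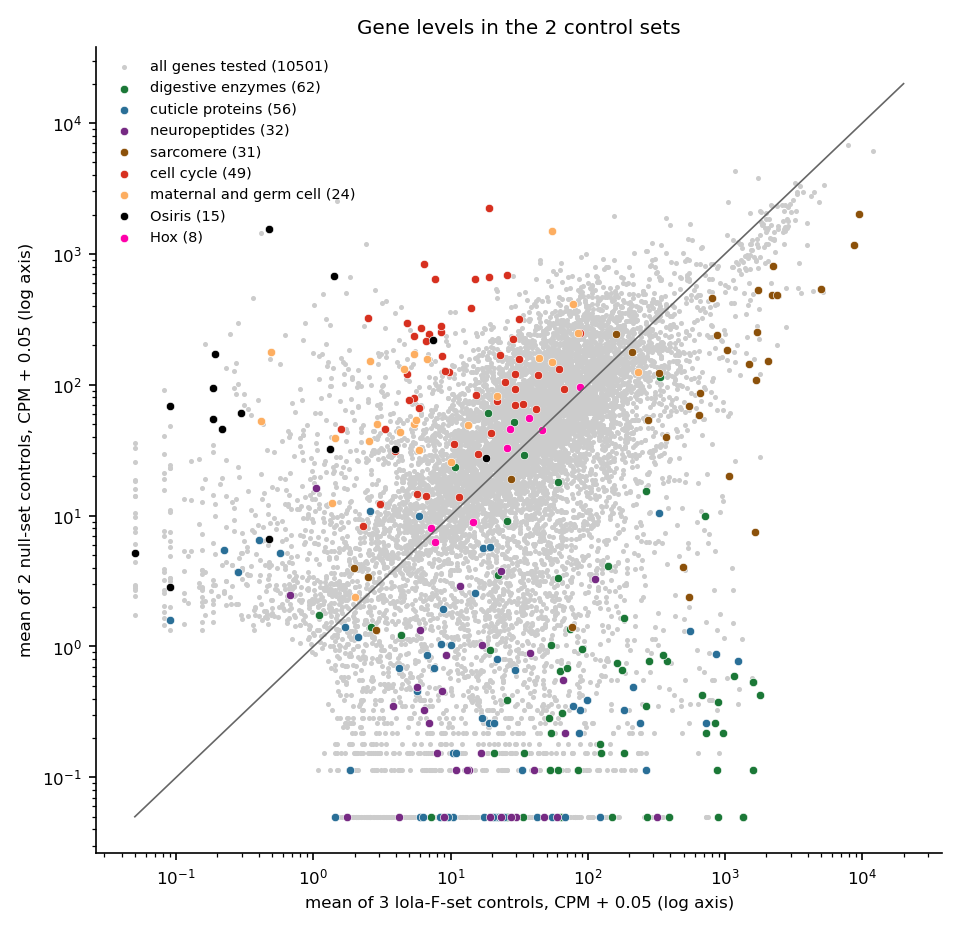
Mean level of each gene tested in the 3 lola-F-set controls (x axis) and the 2 null-set controls (y axis), in CPM plus 0.05 on log axes, with the members of 8 lists in colour and the line of equal levels. Cell cycle, maternal and Osiris genes lie mostly above the line, digestive enzymes, cuticle proteins and neuropeptides lie mostly below it with many at 0 in the null-set controls, and Hox genes lie near it.

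RNA of maternal and germ cell genes was read mainly in the null-set controls, and the counts do not show whether mother or embryo made it. Of 26 maternal and germ cell genes, 24 were tested, 22 were higher in the null-set controls and 1, tud, a germ plasm gene, was 1.88-fold lower, with a median log2 fold change of 3.29. The RNA of bcd, the maternal determinant of the anterior pole (chromosome 3R, 6755842 to 6759466, minus strand, BDGP6.54 annotation), was at 149 and 207 CPM in the null-set controls. In the lola-F-set controls it was at 0.619, 0.711 and 0 CPM (adjusted p = 1.80e-05), so the sets were far from overlapping. The RNA of smg, an RNA-binding protein that directs clearance of maternal transcripts, was at 1208 and 1800 CPM against 62.9, 45.4 and 57.3 CPM, a log2 fold change of 4.77 ± 0.25 (SE, adjusted p = 6.76e-06). The RNA of swa, needed to localise bcd in the oocyte, was at 121 and 181 CPM against 4.95, 2.25 and 0.384 CPM. The posterior determinant osk was at 137 and 180 CPM against 13.6, 6.28 and 0 CPM, a difference called in edgeR (adjusted p = 0.00594) and missed in DESeq2 (0.0591). The plu gene, a regulator of the first cell cycles of the embryo, was at 45.9 and 60.1 CPM against 0.619, 0.474 and 0 CPM. pgc, which represses transcription in germ cells, was at 33.1 and 40.9 CPM against 3.41, 3.44 and 0.576 CPM (15.9-fold, adjusted p = 7.52e-04). Apart from tud, the genes named here were far above the lola-F-set range in each null-set library. Sets without overlap were found for 81.1% of all genes tested.

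Genes of the first zygotic transcription and of cellularization, when membranes enclose the nuclei of the early embryo, were also read mainly in the null-set controls. Of 14 such genes, 9 were tested and 9 were higher in the null-set controls (median log2 fold change 5.73). Without null-set control 2 the number called was 5 and the median 4.61, and without null-set control 1 the median was 6.37. slam, a membrane protein of the cellularization furrow, was at 156 and 406 CPM against 3.10, 2.25 and 1.54 CPM. bnk, which acts in the actin network of the same furrow, was at 9.01 and 62.7 CPM and had 0 counts in all lola-F-set controls, at least 264-fold higher against a floor of 3 counts over that group. Elba1, a subunit of an early embryonic insulator complex, was at 2.31 and 13.7 CPM against 0 counts, at least 59.0-fold higher. nullo, another gene of this process, had too few reads to test, with 1 and 60 counts in the null-set controls and 0 in the others. The levels of bnk, Elba1, slam and nullo were all higher in null-set control 2 than in null-set control 1. zld, an activator of the first zygotic genes that also works later in the nervous system, was at 452 and 498 CPM against 82.7, 72.5 and 144 CPM (log2 fold change 2.25 ± 0.30, adjusted p = 3.87e-04).

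Cell cycle and DNA replication genes were higher almost without exception. All 49 were tested, 46 were higher in the null-set controls and 0 were lower, with a median log2 fold change of 3.34. Their levels summed to 9507 and 13360 CPM in the null-set controls against 1059, 976 and 625 CPM. CycB, the mitotic cyclin, was at 1566 and 2950 CPM against 34.7, 17.0 and 5.18 CPM (log2 fold change 6.99 ± 0.74, adjusted p = 1.17e-04). fzy, an activator of the anaphase-promoting complex, was at 289 and 361 CPM against 2.17, 2.85 and 2.30 CPM (log2 fold change 7.02 ± 0.24, adjusted p = 3.51e-06). stg, the phosphatase that triggers mitosis, was at 98.9 and 155 CPM against 10.2, 7.94 and 9.02 CPM (log2 fold change 3.82 ± 0.26, adjusted p = 1.74e-05). RnrL, the large subunit of the enzyme that makes deoxynucleotides, was 5.12-fold higher. CycE, the cyclin of S phase, was at 70.9 and 180.5 CPM against 14.2, 9.01 and 5.66 CPM. No lola-F-set library reached the null-set range for any of these 5 genes, and 81.1% of all genes tested likewise did not overlap.

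Segmentation genes were also mostly higher. Of 24, 23 were tested, 17 were higher, and 2 were lower, Kr and hry, with a median log2 fold change of 1.45. The gap gene hb, which is also used in neuroblasts, was at 67.1 and 99.5 CPM against 8.67, 4.74 and 4.42 CPM (log2 fold change 3.89 ± 0.33, adjusted p = 4.33e-05). The segment polarity gene en was at 18.0 and 23.2 CPM against 7.43, 7.59 and 8.83 CPM (log2 fold change 1.37 ± 0.25, adjusted p = 0.00205). Among pair-rule genes, eve was at 4.19 and 5.70 CPM against 2.79, 2.49 and 3.55 CPM and odd at 15.3 and 13.99 CPM against 10.2, 10.7 and 11.6 CPM, and neither was called. ftz had 5 and 18 counts in the null-set controls and 1, 3 and 2 in the lola-F-set controls, too few to test. hry, a pair-rule gene and transcriptional repressor, was lower, at 10.5 and 7.77 CPM against 91.0, 90.1 and 98.6 CPM (log2 fold change -3.36 ± 0.24, adjusted p = 1.90e-05). Kr, a gap gene that is also active in Malpighian tubules and amnioserosa, was at 9.64 and 16.2 CPM against 27.2, 23.2 and 33.6 CPM (adjusted p = 0.0123, and 0.0735 without null-set control 1).

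Genes of proneural clusters, Notch signalling and neuroblasts were higher in the null-set controls in 19 of 26 tested genes (of 29 listed) and lower in 1, the neural patterning gene vnd, with a median log2 fold change of 2.14. N, the Notch receptor, was at 377 and 426 CPM against 27.9, 23.9 and 36.2 CPM, 13.6-fold higher (adjusted p = 1.06e-05). E(spl)m7-HLH, a direct target of Notch, was at 28.1 and 25.6 CPM against 0, 0 and 0.288 CPM. mira, which sorts fate determinants in dividing neuroblasts, was 12.1-fold higher (92.7 and 89.4 CPM against 6.19, 7.82 and 8.16 CPM), dpn, a neuroblast self-renewal factor, 7.78-fold, and wor, a neuroblast repressor of the Snail family, 2.92-fold. The sets did not overlap for N, E(spl)m7-HLH, mira, dpn or wor, as for 81.1% of all genes tested. Absence of overlap was in part a condition for naming genes, so it is not separate evidence.

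**Figure D3:**
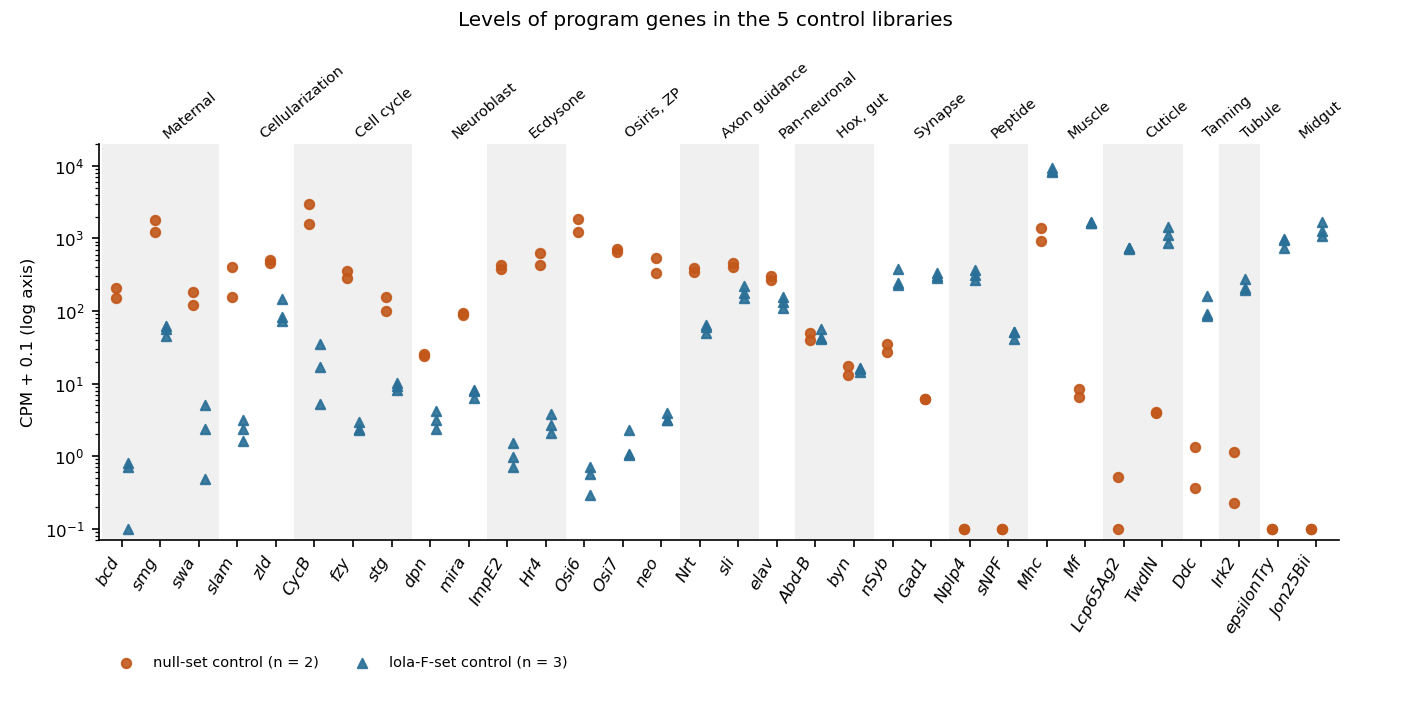
Levels of chosen program genes in each control library, in CPM plus 0.1 on a log axis, ordered by program. Null-set controls (n = 2) are orange circles and lola-F-set controls (n = 3) are blue triangles. Points on the lowest line are libraries with 0 counts; genes from bcd to elav lie higher in the null-set controls, Abd-B and byn overlap, and genes from nSyb to Jon25Bii lie lower.

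Ecdysone, the insect steroid hormone, acts through a receptor and a cascade of nuclear receptors and target genes whose order is well known. Of 21 genes of this cascade, 20 were tested, 13 were higher in the null-set controls and 2 were lower (1 without null-set control 1 and 0 without null-set control 2), with a median log2 fold change of 1.05. Nuclear receptors and target genes of the cascade were among those higher. Hr4, a nuclear receptor of the cascade, was at 634 and 428 CPM against 3.72, 2.61 and 2.02 CPM (log2 fold change 7.67 ± 0.32, adjusted p = 4.53e-06). Hr3, an activator of ftz-f1, was at 109.6 and 111.5 CPM against 5.57, 2.96 and 5.57 CPM (log2 fold change 4.58 ± 0.30, adjusted p = 1.46e-05). The ecdysone-inducible genes ImpE2, at 433 and 377 CPM against 0.619, 1.42 and 0.864 CPM, and ImpL1, at 380 and 217 CPM against 1.55, 0.830 and 0.0960 CPM, were nearly absent from the lola-F-set controls. ftz-f1, which follows the pulse, was 6.07-fold higher (127 and 195 CPM against 23.8, 20.03 and 35.3 CPM), the receptor gene EcR 3.19-fold, and Blimp-1, a repressor that times ftz-f1, 3.63-fold. Eip75B was at 127 and 101 CPM against 103, 104 and 202 CPM and Eip74EF at 4.19 and 2.85 CPM against 8.05, 8.65 and 2.78 CPM, so these early response genes overlapped between sets and were not called. Without lola-F-set control 3, Eip74EF was called (adjusted p = 0.0091). Hr38, a nuclear receptor of a separate branch of the response to ecdysone, was at 0.210 and 0.130 CPM against 8.05, 4.98 and 88.2 CPM, with lola-F-set control 3 far above the other 4 libraries (adjusted p = 0.00953, 0.0808 without null-set control 1 and 0.107 without null-set control 2).

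Among 9 genes of ecdysone synthesis, 7 were tested, 2 were higher (1 without lola-F-set control 2) and 3 were lower, with a median log2 fold change of -0.36 that rested on single libraries (-1.65 without lola-F-set control 3 and -1.12 without null-set control 1). spo and spok encode near relatives for the same early step and differed in opposite directions. spo was at 5.66 and 3.11 CPM in the null-set controls with 0 counts in the others, at least 32.3-fold higher, while spok was at 0.838 and 0 CPM against 12.1, 8.18 and 6.14 CPM (adjusted p = 0.00329). As background, spo serves the embryo and spok the larva.

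The epidermis held genes at opposite extremes. Osiris genes, a clustered insect family expressed in cells that secrete cuticle, were almost absent from the lola-F-set controls. Of 22 members, 15 were tested, 14 were higher in the null-set controls and 0 were lower, with a median log2 fold change of 7.58 (7.54 with 0-count groups at their bound). All 15 lie in 1 cluster on chromosome 3R, 6198811 to 6341424 (BDGP6.54 annotation). Osi6 was at 1873 and 1235 CPM against 0.619, 0.474 and 0.192 CPM (log2 fold change 11.98 ± 0.39, adjusted p = 3.51e-06), and Osi7 at 722 and 643 CPM against 2.17, 0.948 and 0.960 CPM. Osi9 was at 72.1 and 64.4 CPM with 1 count in all lola-F-set controls together. Summed over the family, the level was 3584 and 2536 CPM against 38.4, 48.1 and 15.7 CPM, higher in null-set control 1 than in null-set control 2, the opposite order to the cellularization and cell cycle lists.

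Genes for ZP-domain proteins and denticle builders, which shape the apical surface before and during cuticle secretion, were mostly higher too. All 17 were tested, 13 were higher in the null-set controls and 3 were lower, with a median log2 fold change of 3.28. neo was at 543 and 330.1 CPM against 3.10, 3.79 and 3.07 CPM (log2 fold change 7.02 ± 0.30, adjusted p = 4.73e-06), m at 109.0 and 79.4 CPM against 0, 0.356 and 0.288 CPM, and dyl at 201 and 165 CPM against 0.929, 1.30 and 3.07 CPM. neo, m and dyl encode ZP-domain proteins of the apical matrix. sha, needed to form denticles, was at 100.0 and 102.0 CPM against 0.310, 0 and 0.384 CPM. dy, a relative of dyl outside this list and among the 10 largest rises of all genes, was at 28.9 and 22.1 CPM with 0 counts in all lola-F-set controls, at least 188-fold higher. Within the same list zye, another ZP-domain gene, ran the other way at 0.419 and 0.130 CPM against 55.4, 49.0 and 43.0 CPM, and dpy, the giant ZP-domain protein of cuticle and tracheal lumen, was not called (298 and 222 CPM against 332, 258 and 294 CPM).

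Structural proteins of the finished cuticle were mostly lower in the null-set controls. Of 99 chitin-binding cuticle protein genes, 56 were tested, 47 were lower and 6 were higher, with a median log2 fold change of -6.79 (-5.53 with 0-count groups at their bound). The fitted median ranged further down with 1 library left out, to -8.48 without null-set control 1, -7.64 without null-set control 2 and -7.45 without lola-F-set control 3. They summed to 97.1 and 79.3 CPM in the null-set controls against 5709, 5967 and 5429 CPM. Lcp65Ag2, a larval cuticle protein (chromosome 3L, 6132990 to 6133593, minus strand), was at 0.419 and 0 CPM against 733, 728 and 716 CPM, and it lies in a cluster of 9 tested cuticle genes on 3L (6130386 to 6158630) of which 9 were lower. Cpr76Bb had 0 counts in both null-set controls and 65.3, 71.7 and 67.9 CPM in the others, at least 284-fold lower, and Cpr65Ec likewise was at least 72.7-fold lower. Edg91 also had 0 counts in the null-set controls, but its level in the lola-F-set controls was uneven, 173 and 189 CPM in controls 1 and 2 and 6.43 CPM in control 3 (adjusted p = 0.00676, and 0.0588 without null-set control 2).

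The Tweedle family, cuticle proteins that set body shape, was split within itself. Of 26 members, 18 were tested, 9 were lower and 5 were higher in the null-set controls. The list's median was -2.58 on the log2 scale (-3.21 without lola-F-set control 1 and -3.81 without lola-F-set control 3). In a cluster on 3R (26619118 to 26641054) 7 of 9 tested members were lower, among them TwdlN, at 3.98 and 3.89 CPM against 860.3, 1103 and 1436 CPM (log2 fold change -8.17 ± 0.35, adjusted p = 4.73e-06). TwdlJ had 0 counts against 39.3, 43.4 and 16.3 CPM, at least 137.5-fold lower. In another cluster on 3R (4247020 to 4255833) 2 of 3 tested members were higher, among them TwdlF, at 11.3 and 45.8 CPM against 0.619, 0.830 and 0.576 CPM. TwdlT was at 16.1 and 12.4 CPM against 0.310, 0 and 0.0960 CPM. TwdlM was at 2.31 and 1.81 CPM against 33.1, 34.1 and 0.576 CPM, with lola-F-set control 3 below the null-set controls. It was not called with all 5 libraries (adjusted p = 0.0596) and was called without lola-F-set control 3 (9.02e-06) or control 1 (0.0422). Tb had 0 counts in the null-set controls and 5 in the others, too few to test.

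Genes for chitin itself were mixed. Of 32 genes of chitin synthesis and modification, 30 were tested, 17 were lower and 5 were higher (3 without either null-set control), with a median log2 fold change of -0.62. kkv, the epidermal chitin synthase, was at 228 and 198 CPM against 207, 194 and 149 CPM, and verm, a chitin deacetylase, at 627 and 634 CPM against 587, 611 and 390.4 CPM, and neither was called. Chitin-binding and late matrix genes were among those lower: obst-F, at least 151-fold, obst-G, at least 148-fold, and Vajk2, at 2.73 and 4.79 CPM against 514, 575 and 438.5 CPM. Vajk4, of the same family as Vajk2, was higher instead, at 5.24 and 3.76 CPM against 0.619, 0.356 and 0.0960 CPM. Of 20 tanning and dopamine synthesis genes, 15 were tested, 10 were lower and 2 were higher. Ddc, which makes dopamine for hardening and darkening, was at 1.26 and 0.259 CPM against 86.1, 90.1 and 160 CPM, and ple, the tyrosine hydroxylase, at 8.18 and 6.48 CPM against 200, 198 and 99.3 CPM (log2 fold change -4.51 ± 0.40, adjusted p = 5.40e-05). amd, a relative of Ddc, was higher, at 89.9 and 53.2 CPM against 5.26, 5.33 and 4.99 CPM.

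In the nervous system, pan-neuronal and synaptic genes were mostly lower in the null-set controls, and 1 of them, elav, was called higher. Of 28 pan-neuronal and synaptic genes, 24 were lower in the null-set controls and 1 was higher (2 without lola-F-set control 3), with a median log2 fold change of -3.18. The gene called higher was elav, the RNA-binding protein used as a marker of all neurons, at 304 and 265 CPM against 135, 108 and 157 CPM (log2 fold change 1.09 ± 0.20, adjusted p = 0.00216). fne, its neuronal relative, was at 131 and 144 CPM against 96.6, 76.2 and 137 CPM and was not called with all 5 libraries (adjusted p = 0.0099 without lola-F-set control 3). Synaptic vesicle genes were lower: nSyb, the vesicle SNARE, was at 35.4 and 26.9 CPM against 230.0, 239 and 385 CPM (log2 fold change -3.20 ± 0.32, adjusted p = 8.46e-05), and Syt1, the calcium sensor of release, was 9.32-fold lower. Transmitter synthesis was lower too. Gad1, which makes GABA, was at 6.08 and 6.09 CPM against 302, 283 and 337 CPM (log2 fold change -5.66 ± 0.23, adjusted p = 4.36e-06), and ChAT, which makes acetylcholine, was 9.19-fold lower. nrv3, a neuronal subunit of the sodium pump, was 11.6-fold lower. The sets did not overlap for any of these genes except fne, as was so for 81.1% of all genes tested.

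Axon guidance genes, active while axons grow, were more often higher than lower in the null-set controls, at 51.35% higher against 34.5% of all genes. All 37 were tested, 19 were higher and 2, caps and comm2 (1.90-fold and 1.69-fold), were lower (1 without lola-F-set control 3 or null-set control 2), with a median log2 fold change of 0.63. sli, the midline repellent, was at 456 and 405 CPM against 177, 150.5 and 224 CPM (log2 fold change 1.23 ± 0.21, adjusted p = 0.00132). Its receptor genes robo2 and robo1 were 5.38-fold and 1.54-fold higher, and the call for robo1 (adjusted p = 0.0215) was lost without lola-F-set control 1 (0.135) or 2 (0.203) or null-set control 1 (0.0665) or 2 (0.0883). Nrt, an adhesion protein of growing axons, was 6.37-fold higher (340 and 396 CPM against 59.8, 49.3 and 64.3 CPM), and Sema2a, a secreted semaphorin, 4.49-fold. The midline attractant NetB was at 67.5 and 48.0 CPM against 73.4, 58.1 and 127 CPM and was not called with all 5 libraries (adjusted p = 0.0495 without lola-F-set control 2).

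Neuropeptide genes had the lowest median among the lists of the nervous system. Of 38, 32 were tested, 30 were lower in the null-set controls and 1 was higher (2 without lola-F-set control 3), with a median log2 fold change of -6.71 (-5.37 with 0-count groups at their bound). Nplp4 had 0 counts in both null-set controls and 270.0, 368 and 318 CPM in the others, at least 1328-fold lower. Dh31 and sNPF, peptides that act on gut, fluid balance and feeding, also had 0 counts and were at least 249.6-fold and 198-fold lower. Crz, made in a small set of brain and cord neurons, was at 0.419 and 0.389 CPM against 6.19, 7.82 and 11.8 CPM (log2 fold change -4.38 ± 0.52, adjusted p = 2.14e-04). The only gene called higher was Ilp4, an insulin-like peptide made in the mesoderm and gut of younger embryos, at 21.6 and 10.6 CPM against 1.24, 1.54 and 0.192 CPM.

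Glial genes were called in both directions. Of 20, 5 were higher (25%) and 11 were lower (55%), against 34.5% and 35.8% of all genes, with a median log2 fold change of -0.90. Higher in the null-set controls were gcm, the switch that makes glia, at 20.96 and 22.02 CPM against 1.24, 1.66 and 0.672 CPM (log2 fold change 4.18 ± 0.40, adjusted p = 7.30e-05), and repo, the marker of all lateral glia, 2.19-fold. wrapper, a midline glial adhesion protein, was 5.53-fold higher. Among the genes lower were the transmitter transporters Eaat1, at 0.838 and 0.259 CPM against 128, 111 and 143 CPM, and Eaat2, 27.7-fold lower, and the glutamine synthetase Gs2, at 47.2 and 21.8 CPM against 406, 470.3 and 638 CPM. Among 27 genes of ciliated and other sensory neurons, 23 were tested, 7 were higher and 4 were lower, with a median log2 fold change of 0.52. Both shares, 30.4% higher and 17.4% lower, lay below those of all genes (34.5% and 35.8%). Those higher included Oseg6, 5.535-fold, Oseg5, 4.33-fold, and Dhc36C, 3.99-fold. Those lower included the channels nompC, 5.68-fold, and ppk, 26.9-fold. ato, the proneural gene of these organs, had 10 and 2 counts in the null-set controls and 1 in the others together. Of 231 odorant-binding protein and receptor genes, 38 were tested, 24 were lower and 6 were higher (3 without null-set control 2), and Obp56d, with 0 counts against 98.1, 104 and 122 CPM, was at least 450.6-fold lower.

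**Figure D4:**
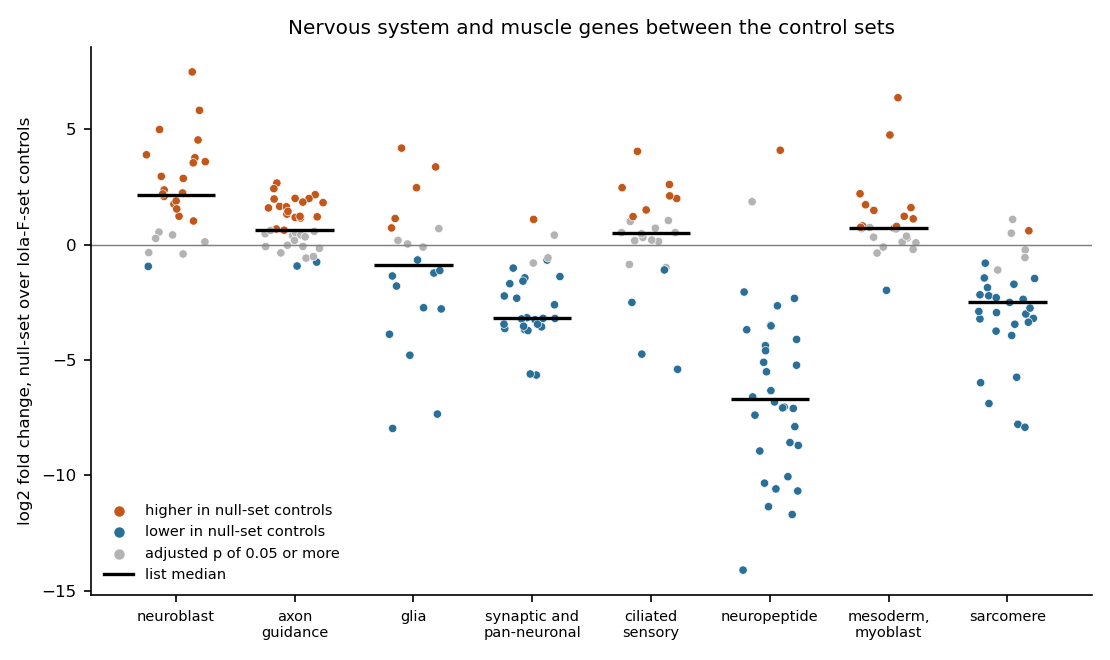
Log2 fold change of each tested gene, null-set over lola-F-set controls, in 6 lists of the nervous system and 2 of muscle, with called genes in orange (higher) and blue (lower), genes with an adjusted p of 0.05 or more in grey, and a black bar at each list median. Medians run from 2.14 for neuroblast genes through 0.63 for axon guidance and -3.18 for synaptic genes to -6.71 for neuropeptides, and from 0.73 for mesoderm genes to -2.50 for sarcomere genes.

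In muscle, sarcomere genes were mostly lower in the null-set controls, and genes of precursors were split between higher and not called. Of 25 genes of mesoderm, founder cells and myoblast fusion, 24 were tested, 12 were higher in the null-set controls (6 without lola-F-set control 2) and 1, WASp, an actin regulator, was lower, with a median log2 fold change of 0.73. Him, an inhibitor that holds muscle progenitors back, was at 20.8 and 18.1 CPM against 0, 0.119 and 0.384 CPM, and sing, needed for myoblast fusion, at 5.87 and 5.57 CPM against 0.619, 0.119 and 0.0960 CPM. twi, the mesoderm determinant, was at 6.92 and 10.2 CPM against 1.86, 3.79 and 3.26 CPM (adjusted p = 0.0114, and 0.101 without null-set control 2). Mef2, the muscle differentiation factor, was at 127 and 125 CPM against 153, 141 and 192 CPM and was not called. Of 32 sarcomere genes, 31 were tested, 25 were lower and 1, flr, an actin regulator, was higher (0.163 without lola-F-set control 1, 0.167 without control 2 and 0.0575 without null-set control 2, as adjusted p), with a median log2 fold change of -2.50. Mhc, the muscle myosin heavy chain, was at 1408 and 933 CPM against 8159, 8524 and 9462 CPM, 7.45-fold lower (adjusted p = 2.48e-05), and Mlc2 and Tm2 were 9.18-fold and 10.3-fold lower. Mf, a myofilament protein (chromosome 3R, 15170625 to 15181510), was at 6.50 and 8.29 CPM against 1691, 1624 and 1655 CPM, 221-fold lower, and Zasp66, a Z-disc protein, was 242-fold lower. Of 14 cardiac genes, 7 were higher (4 without null-set control 1 or lola-F-set control 2) and 4 were lower. These shares were 50% and 28.6%, against 34.5% and 35.8% of all genes. prc, which encodes a matrix protein of the heart, was 22.6-fold lower and Hand, a factor of heart and visceral muscle, 2.72-fold lower, while pnr and Doc2, which specify cardiac mesoderm, were 3.97-fold and 3.05-fold higher, the latter not without null-set control 1 (adjusted p = 0.0966).

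The midgut gave the lowest list median. Of 66 digestive enzyme genes, 62 were tested, 55 were lower in the null-set controls and 2, Mal-A5 (3.29-fold) and Lip1 (2.16-fold), were higher (1 without null-set control 1 or lola-F-set control 1 or 2), with a median log2 fold change of -8.66 (-8.08 with 0-count groups at their bound). These genes took 1.91%, 2.19% and 2.08% of gene counts in the lola-F-set controls against 0.0428% and 0.0376%. The trypsin epsilonTry (chromosome 2R, 11345237 to 11346066, minus strand) had 0 counts in the null-set controls and 747, 970.3 and 953 CPM in the others, at least 3707-fold lower. The Jonah proteases Jon25Bii and Jon99Fii, with 0 counts against 1270, 1707 and 1089 CPM and against 988, 1129 and 1924 CPM, were at least 5647-fold and 5609-fold lower. Jonah, maltase and lysozyme genes have close copies, and reads that could belong to several copies are missing from the counts. Muc26B, a mucin gene outside this list and among the 10 largest falls of all genes, was at least 3041-fold lower.

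Gut regulators were mostly not called. Of 17 genes of endoderm, visceral mesoderm and hindgut patterning, 3 were higher (5 without lola-F-set control 3), 2 were lower and 12 were not called, with a median log2 fold change of -0.04. GATAe, the endodermal GATA factor, was at 66.2 and 53.9 CPM against 64.7, 66.1 and 78.8 CPM, and byn, the hindgut T-box factor, at 17.2 and 13.2 CPM against 14.2, 16 and 16.3 CPM. fkh, used in the whole gut and in salivary glands, was at 49.1 and 53.0 CPM against 42.4, 38.4 and 54.4 CPM. The sets overlapped for all 3 of these genes and none was called. Of 21 Malpighian tubule and nephrocyte genes, 13 were lower and 5 were higher (3 without null-set control 2). Irk2, a potassium channel of the tubules, was at 1.05 and 0.130 CPM against 196, 205 and 273 CPM, and the proton pump subunits Vha55 and Vha68-2, abundant in tubules and gut, were 10.1-fold and 12.0-fold lower. Among those higher were Pvf1, 2.62-fold, kirre, 2.34-fold, and ct, 1.99-fold (adjusted p = 0.0425 for ct). sns, an adhesion protein of nephrocytes and myoblasts, was at 65.8 and 76.0 CPM against 31.3, 32.1 and 67.6 CPM and was not called with all 5 libraries (adjusted p = 6.23e-04 without lola-F-set control 3).

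Other tissues were mixed. Of 18 fat body genes, 13 were tested, 6 were lower and 1, Mtp, a lipid transfer protein, was higher. The desaturase Desat1 was 13.5-fold lower (50.3 and 78.6 CPM against 726, 722 and 1167 CPM), while apolpp, the main lipid carrier, was at 2674 and 2060.0 CPM against 2574, 2122 and 3568 CPM and srp, the GATA factor of fat body and blood cells, at 41.9 and 34.5 CPM against 49.2, 40.5 and 44.4 CPM, and neither was called. Of 10 oenocyte genes, 9 were tested, 5 were lower and 1, salm, a determinant of oenocytes, was higher, a call lost without lola-F-set control 1 or 2 or null-set control 1 (adjusted p of 0.0534 to 0.0783). Without lola-F-set control 3, 2 were higher. Cyp4g1, which makes cuticular hydrocarbons, was 5.15-fold lower. Of 26 genes of blood cells (hemocytes) and basement membrane, 25 were tested, 11 were lower and 7 were higher (4 without null-set control 1 or lola-F-set control 2, and 3 without lola-F-set control 1). These shares were 44% and 28%, against 35.8% and 34.5% of all genes. Hml, made by mature hemocytes, was at 0.838 and 0.648 CPM against 131, 118 and 155.5 CPM (log2 fold change -7.50 ± 0.31, adjusted p = 4.51e-06). The collagen IV genes Col4a1 and vkg were 7.06-fold and 5.99-fold lower. Pxn, another marker gene of this list, was 1.74-fold higher instead (151 and 123 CPM against 82.7, 99.7 and 53.9 CPM). PPO2, the prophenoloxidase of crystal cells, was 16.7-fold higher (204 and 218 CPM against 12.4, 12.0 and 13.5 CPM), and NimC4, a receptor for engulfing dying cells, was at 181 and 168 CPM against 2.48, 0.237 and 0.0960 CPM. The marker gene lz ran the other way, at 1.26 and 0.389 CPM against 5.26, 3.67 and 1.54 CPM (adjusted p = 0.0406), with 9 counts in the null-set controls.

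Salivary gland, tracheal and septate junction genes were more often higher than lower, at 60%, 47.1% and 70.8% higher against 34.5% of all genes. Each list's median lay within the interquartile range of all genes (-1.69 to 1.16 on the log2 scale). Of 16 salivary gland genes, 15 were tested, 9 were higher (5 without null-set control 1) and 0 were lower (1 without lola-F-set control 1 or 2), with a median log2 fold change of 1.03. nur, among the 10 largest rises of all genes, was at 1717 and 1195 CPM against 0.619, 0.474 and 0 CPM, and CG14756 at 260.1 and 229 CPM against 0, 0.593 and 0 CPM. CrebA, an activator of the secretory machinery, was 2.08-fold higher (adjusted p = 0.0164), a call lost without any 1 library other than lola-F-set control 3 (adjusted p of 0.0515 to 0.1). Of 17 tracheal genes, 8 were higher and 3 were lower, with a median log2 fold change of 0.42. trh, the master regulator of the trachea, was at 52.4 and 44.7 CPM against 32.5, 35.4 and 49.0 CPM and was not called with all 5 libraries (adjusted p = 0.0352 without lola-F-set control 3). Of 24 septate junction genes, 17 were higher and 2 were lower, with a median log2 fold change of 0.72. crok, an assembly factor, was 7.29-fold higher and kune, a claudin, 2.47-fold higher, while nrv2, a sodium pump subunit of junctions and glia, was 2.18-fold lower. cora was at 510 and 467 CPM against 628, 587 and 768 CPM and was not called (adjusted p = 0.0611), and it passed in DESeq2 (0.0180).

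Of 20 amnioserosa and dorsal closure genes, 9 were higher in the null-set controls and 5 were lower (5 higher without null-set control 1 or lola-F-set control 1 or 2, and 3 lower without null-set control 1). The shares higher and lower were 45% and 25%, against 34.5% and 35.8% of all genes. hid, an inducer of cell death, was at 45.1 and 41.2 CPM against 4.03, 2.85 and 2.21 CPM (log2 fold change 3.89 ± 0.29, adjusted p = 2.27e-05). kay, the Fos protein that drives closure and wound repair, was lower, at 32.3 and 28.1 CPM against 205, 217 and 460 CPM (log2 fold change -3.29 ± 0.42, adjusted p = 3.10e-04). Among 12 apoptosis genes, 8 were higher and 2 were lower, with a median log2 fold change of 2.07. grim, an inducer like hid, was at 3.98 and 3.497 CPM against 0, 0.474 and 0.192 CPM, and rpr, a further inducer, was 3.75-fold higher (adjusted p = 0.00558, and 0.0532 without null-set control 1).

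Genes of energy metabolism were mostly lower in the null-set controls. Of 91 nuclear genes of the respiratory chain, 69 were tested, 63 were lower and 0 were higher, with a median log2 fold change of -1.33. ATPsynC, the membrane ring of ATP synthase, was at 532 and 558.5 CPM against 3378, 3675 and 3111 CPM, 6.22-fold lower. Of 25 glycolytic genes and targets of the receptor ERR, 24 were tested, 21 were lower and 2, Gbs-70E (5.21-fold) and Glys (1.90-fold), which act in glycogen storage, were higher, with a median log2 fold change of -2.50. Gapdh1 was 10.8-fold lower (133 and 104 CPM against 1137, 1250.0 and 1443 CPM), Pfk, the pathway's control enzyme, 6.78-fold, and Ldh, lactate dehydrogenase, 3.60-fold. ERR, the receptor that turns these genes on in mid-embryogenesis, was itself at 41.7 and 29.9 CPM against 52.3, 54.9 and 49.2 CPM and was not called (adjusted p = 0.0546), though it passed in DESeq2 (0.0162) and without lola-F-set control 3 (0.0305) or null-set control 1 (0.0227). Among cytosolic ribosomal protein genes, of 87, 83 were tested, 42 were lower (22 without null-set control 2) and 2 were higher, with a median log2 fold change of -0.52. RpLP0 was 2.33-fold lower.

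Genes of defence and detoxification were mainly lower. Of 35 antimicrobial peptide and Bomanin genes, 18 were tested, 16 were lower and 1 was higher, with a median log2 fold change of -7.59 (-5.78 with 0-count groups at their bound, and -8.25 without null-set control 1). BomS3 was at 1.05 and 0.259 CPM against 150.5, 176 and 66.9 CPM, and BomS6 had 0 counts, at least 137.5-fold lower. The list summed to 43.8 and 11.5 CPM against 621, 663 and 214 CPM, with lola-F-set control 3 below controls 1 and 2. Drsl5 was the gene called higher, at 36.7 and 7.38 CPM against 0.929, 1.78 and 0.0960 CPM (adjusted p = 0.00402, and 0.0639 without null-set control 1). Of 142 cytochrome P450 and transferase genes, 128 were tested, 92 were lower and 17 were higher, with a median log2 fold change of -2.97. Cyp12a5 was at 0.210 and 0 CPM against 32.5, 35.2 and 47.1 CPM, while Ugt35D1 was higher at 75.5 and 63.8 CPM against 0.310, 0.474 and 0 CPM. Of 18 heat shock genes, 11 were tested, 5 were higher (3 without null-set control 1 or lola-F-set control 2) and 2 were lower. Of the small heat shock genes, Hsp27, at 119.5 and 77.1 CPM against 11.2, 8.53 and 5.18 CPM, and Hsp23, 3.76-fold, were higher, and Hsp26 stood at 161 and 44.2 CPM against 25.4, 30.1 and 13.8 CPM (adjusted p = 0.00907, and 0.109 without null-set control 1). l(2)efl, another small heat shock gene, was lower, at 23.7 and 19.3 CPM against 119, 136 and 208 CPM (7.21-fold, adjusted p = 1.24e-04).

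Hox genes were mostly not called, in a comparison that called 70.3% of all genes. Of 8 Hox genes, which hold segment identity from early embryo to larva, 1 was higher, Ubx, at 47.0 and 44.3 CPM against 25.7, 21.2 and 34.7 CPM (adjusted p = 0.0258), a call lost without lola-F-set control 1 (0.147) or 2 (0.177) or null-set control 1 (0.0963) or 2 (0.0781), and in DESeq2 (0.0665). The list's median log2 fold change was 0.16. Abd-B, of the last abdominal segments, was at 49.3 and 40.2 CPM against 42.4, 41.0 and 55.7 CPM. Of 9 heterochronic and circadian timing genes, 8 were tested, 3 were higher, ab (2.54-fold), cyc (3.36-fold) and vri (3.20-fold), and 0 were lower (1 without lola-F-set control 1 or 2), with a median log2 fold change of 0.08 that lay between -0.0525 and -0.0103 under DESeq2, 2 other scalings and a fit of all 10 libraries. Of 20 sex determination and dosage compensation genes, 19 were tested, 12 were higher and 2, fru and roX2, were lower (1 without either null-set control). Sxl, the female switch gene, was at 163 and 186 CPM against 198, 176.5 and 208 CPM, and roX1, a dosage compensation RNA made in males, at 326 and 365 CPM against 410.2, 384 and 490.1 CPM, and neither was called. fru, whose transcripts mark many neurons, was at 0.629 and 0.389 CPM against 71.2, 68.8 and 131 CPM. The call for roX2, the other male RNA of dosage compensation, was lost without null-set control 1 (adjusted p = 0.0634) or 2 (0.0509).

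The null-set controls held RNA of programs that textbooks place far apart in time, maternal and cellularization genes on one side and Osiris and ZP-domain genes on the other. The 2 libraries were not alike in the balance between them. The cellularization list summed to 844 CPM in null-set control 1 and 1258 CPM in null-set control 2, and the maternal list to 3135 and 4702 CPM, while the Osiris list summed to 3584 and 2536 CPM and the ecdysone cascade to 2818 and 2400.0 CPM. Single genes made up much of the first 2 sums. In null-set control 2, zld, which also works later in the nervous system, gave 498 CPM of the cellularization sum. There smg gave 1800 CPM of the maternal sum. How these RNAs were spread over embryos in a pool was not measured.

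Levels in the mutant libraries, scaled together with the controls over all 10 embryo libraries, are given as a description. In the lola-F set, the Osiris list summed to 20.1, 22.8 and 20.9 CPM in mutants and 36.9, 46.0 and 15.0 CPM in controls, so the groups overlapped. Digestive enzymes summed to 32730, 29910 and 39360 CPM in mutants and 18780, 22540 and 22190 CPM in controls, and Tweedle genes to 4161, 3852 and 3395 CPM and 1442, 1717 and 1772 CPM. Pan-neuronal and synaptic genes summed to 2701, 2889 and 1836 CPM in mutants and 4158, 3547 and 6006 CPM in controls. For these 3 lists the mutant and control libraries did not overlap. Many other lists also did not overlap, among them axon guidance, Hox and sarcomere genes, so this was not particular to the 3. In lola-F-set mutant 3, bcd was at 31.6 CPM and CycB at 364 CPM, against at most 0.774 CPM and 33.3 CPM in the other 5 lola-F-set libraries. In the null set, Tweedle genes summed to 2797 and 2335 CPM in mutants against 53.2 and 89.7 CPM in controls, and cuticle proteins to 1775 and 1555 CPM against 84.0 and 69.6 CPM. The Osiris list was at 8693 and 6519 CPM against 3101 and 2228 CPM.

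Several cuticle genes had their highest levels in the null-set mutants. Cpr65Ea was at 301 and 423 CPM in null-set mutants, 1.27 and 0.682 CPM in null-set controls and at most 3.74 CPM in the lola-F set. TwdlM was at 563 and 482 CPM in null-set mutants against 2.00 and 1.59 CPM in null-set controls, and TwdlF at 457 and 387 CPM against 9.80 and 40.3 CPM. Vajk4 was at 186 and 190 CPM against 4.54 and 3.30 CPM, while its relative Vajk2 was at 95.2 and 51.4 CPM in null-set mutants and 422 CPM or more in every lola-F-set library. Digestive enzymes in the null-set mutants (716 and 677 CPM) and neuropeptides (50.5 and 55 CPM) were far below every lola-F-set library. Of the early genes, bcd was at 377 and 160.1 CPM in null-set mutants against 129 and 181 CPM in null-set controls, so the groups overlapped, and bnk at 0 and 0.225 CPM against 7.80 and 55.1 CPM. Differences of the mutants were not tested here.

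**Figure D5:**
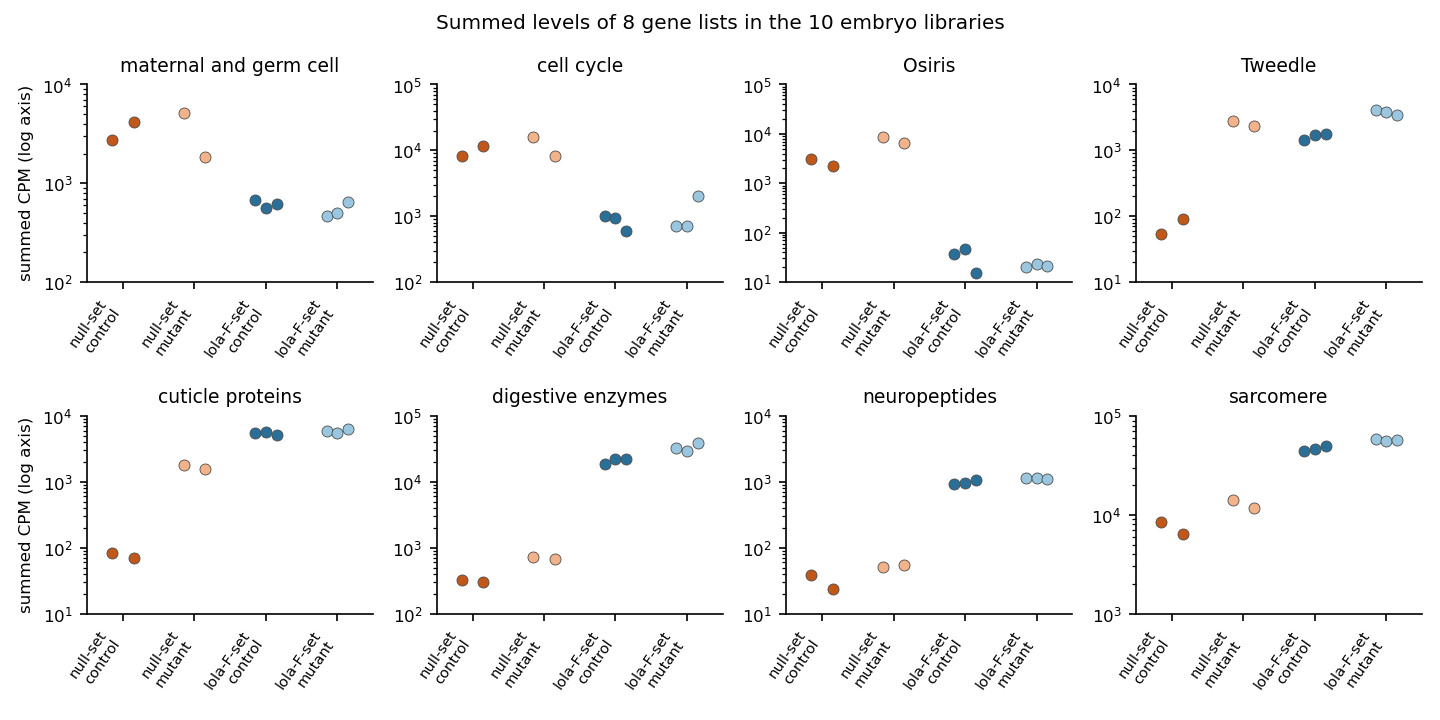
Summed level of 8 gene lists in each of the 10 embryo libraries, in CPM scaled over all 10 on log axes, by group, with 1 point per library (2 null-set controls, 2 null-set mutants, 3 lola-F-set controls and 3 lola-F-set mutants). The sums separate the 2 sets for every list but Tweedle, whose sums in null-set mutants lie between those of lola-F-set controls and mutants. Within the null set, Tweedle and cuticle protein sums separate mutants (2797 and 2335 CPM, and 1775 and 1555 CPM) from controls. Osiris sums are high in all 4 null-set libraries.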

How the data were processed

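Gene counts were deposited by the authors as 1 file per library, raw whole numbers without normalization, ending in 5 summary rows that stayed out of library sizes and tests. The submitters' processing notes name STAR 2.5.0c, HTSeq 0.6.1p1 and BDGP6. The sources used here do not state an annotation release, a strand setting or what the word filtered in the deposited names means, so overlapping and antisense genes may share reads. Families with near-identical members (Jon, Mal-A, Twdl, Cpr, Obp) are uncertain.

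Of 17558 gene identifiers in the lola-F-set files, 17387 were also in the null-set files and were used. Symbols and coordinates come from BDGP6.54, where 17113 matched and 274 had no entry. No value of lola is reported here. The 5 control libraries, grouped by label, were filtered with filterByExpr, scaled by TMM and compared with edgeR 4.0.16 (R 4.3.3) by the quasi-likelihood F test, adjusted by Benjamini-Hochberg over 10501 genes at 0.05. The SE of a log2 fold change is its size over the root of the F statistic. The fit was also run on simulated counts in which far fewer genes differed than here, so that run cannot show how it performs when most genes differ. Floors of 3 counts are taken over a group and cover counting error only. The shallowest library held 3326811 gene counts.

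The comparison, the 44 gene lists (1507 genes) and the rules were chosen with earlier results of these data known. Genes could be named as 97 marker genes of the lists (91 tested, 38 higher, 25 lower and 28 not called), as up to 3 called genes per list and direction with the largest change at 5 CPM or more without overlap, or as the 10 largest changes in each direction at 20 CPM or more. Which of these the text describes was decided after their values were seen, as were 26 named genes outside the rule, among them osk, smg, zld, N, mira, ChAT and fne. Alternatives were DESeq2 1.42.0, other scalings, filters and fits, and leaving out each library. Promoter motifs, which had been planned, were not run. Libraries of adults were not used.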

Additional observations from a re-analysis of the deposited data

How the results depend on the processing

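Counts of called genes, 3624 higher and 3757 lower in the null-set controls, stayed within 1.5 times under DESeq2 (3354 and 3978), size factors of DESeq2 in edgeR (3387 and 3919), upper quartile scaling (3335 and 3916), no filter (3805 and 3835), a minimum of 50 counts (3066 and 3074 of 8393 genes), all 10 embryo libraries in 1 fit (3171 and 3942) and removal of a length trend (3840 and 3654). Tested against 2-fold with glmTreat, they were 2112 and 2695. Leaving out 1 library gave 2944 to 3661 higher and 3233 to 3848 lower. With replicate number as a block they were 3551 and 3848, but the numbers do not pair the libraries (correlation of deviations 0.0224). The median of all genes, -0.02, was -0.118, -0.131, -0.155 and -0.112 under DESeq2 size factors in edgeR, upper quartile scaling, the 10-library fit and DESeq2, and no gene called in the 5 libraries changed sign there. Removal of the length trend turned the sign of 27 called genes. Of the genes named in the report, 7 changed sign under an alternative, none of them called in the 5 libraries, as did 3 list medians. With the block, Abd-B was at 0.0888, apolpp at 0.00597 and Eip75B at 0.121 on the log2 scale, and with the length trend removed Abd-B was at 0.0589, Cpr65Ea at 0.203 and dpy at 0.188. With 1 library left out, Abd-B ranged from -0.258 to 0.1, apolpp from -0.477 to 0.00207, byn from -0.236 to 0.159, dpy from -0.388 to 0.0329, Eip75B from -0.57 to 0.121 and fkh from -0.0317 to 0.331, and the median of gut patterning genes from -0.168 to 0.0489, of Hox genes from -0.0193 to 0.263 and of timing genes from -0.184 to 0.312. The timing median was -0.0103 in DESeq2, -0.019 with its size factors, -0.0182 with upper quartile scaling and -0.0525 in the 10-library fit. The cause of these turns was not tested. Under another scaling or the 10-library fit, Lip1, robo1, Ubx, flr and salm lost their calls and cora, ERR, Mef2 and TwdlM gained one, and Hand lost its call with the length trend removed (adjusted p = 0.0745). Promoter motifs were not run. Depth limits genes with a few counts in 1 set, whose fold is given as a bound or not at all.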

Other observations

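Several gene pairs that encode alternative forms of 1 protein, chosen after their values were seen, differed in opposite directions between the control sets. The ribosomal protein genes RpS5a and RpS5b encode near-identical proteins, and RpS5b is best known from the female germline. RpS5b was at 612 and 415 CPM in the null-set controls against 85.8, 122 and 66.2 CPM in the lola-F-set controls (log2 fold change 2.49 ± 0.30, adjusted p = 2.12e-04), while RpS5a was at 1206 and 852 CPM against 2099, 2497 and 2379 CPM (log2 fold change -1.18 ± 0.20, adjusted p = 0.00120). Of the actins, the cytoplasmic gene Act42A was at 771 and 828 CPM against 194, 200 and 206 CPM, 3.99-fold higher, and the muscle gene Act57B at 2409 and 1658 CPM against 8944, 10070 and 9350 CPM, 4.65-fold lower. The other cytoplasmic actin gene, Act5C, was 1.51-fold lower (adjusted p = 0.00704), a call that was lost with replicate number as a block (0.154). Actin genes share coding sequence, so reads may be split between them.

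Genes of nuclear structure and tubulin also differed. Lam, the B-type lamin present in all cells, was at 311 and 480 CPM against 178, 186 and 159 CPM (log2 fold change 1.18 ± 0.22, adjusted p = 0.00206), and LamC, the lamin of differentiating tissues, was at 132 and 118 CPM against 594, 658 and 802 CPM (log2 fold change -2.46 ± 0.21, adjusted p = 3.87e-05). BigH1, the linker histone of the early embryo and germline, was at 61.0 and 80.0 CPM against 4.95, 3.32 and 0.288 CPM (adjusted p = 7.21e-04). The tubulin alphaTub67C, deposited in the egg by the mother, was at 47.4 and 44.4 CPM against 8.05, 6.64 and 0.480 CPM (adjusted p = 0.00761, 0.0537 without null-set control 1 and 0.0544 without null-set control 2). alphaTub84B, the general alpha-tubulin, was 2.20-fold higher.

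By chromosome, 39.0% of 1664 tested genes on X were called higher in the null-set controls, against 34.5% of all genes, and 14 of 88 genes on chromosome 4 (15.9%). Median exonic length was 2242 bases for genes called higher and 1905 bases for genes called lower, against 2037 bases over all genes tested with a length.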
